A study of Mus musculus with 9 samples.

Results

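The genes described here encode 3 vascular endothelial growth factors (Vegfa, Vegfb and Vegfc), their 3 receptor tyrosine kinases (Kdr, Flt1 and Flt4), the angiopoietins Angpt1 and Angpt2 and the angiopoietin receptor Tek, also called TIE2. They were chosen by symbol as the ligands and receptors of the VEGF and angiopoietin systems. The 9 symbols were matched to 9 Ensembl identifiers among the 38560 genes of the deposited read count table, and all 9 passed the filter on low counts. Expression was measured by RNA sequencing of cells sorted by flow cytometry from fetal testes of Sf1-eGFP mice at 12.5 days post coitum. Each population (Leydig, Interstitial and Sertoli) has 3 libraries. The title of the study states that it purified fetal Leydig cells to find candidate genes for disorders of sex development.

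All 3 populations came from the same strain, age and tissue and received no treatment other than dissociation and staining. The Sf1-eGFP transgene places a green fluorescent protein under regulatory sequence of the gene for SF1 (Nr5a1), which is active in the somatic cells of the early gonad, and the sources used here do not state the gates that defined each population. Testes were recognised by their cords. Cells binding an antibody to CD31 (Pecam1), a surface protein of endothelial and germ cells, were removed before RNA was taken, so both cell types were meant to be depleted. Replicates A and B of a population are separate RNA pools, each from about 10 sorts on different days and several litters per sort. One sample of each population was a mix of the other 2 pools, by elimination replicate C, although no label says so. Tests therefore used A and B alone, and their p-values measure the spread between pools, not between animals.

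VEGF-A binds KDR and FLT1. KDR carries most of the signal for growth and migration of endothelial cells, while FLT1, which also occurs as a soluble form, holds ligand back. VEGF-B binds FLT1, and VEGF-C binds FLT4, the main receptor of lymphatic endothelium, and also KDR. ANGPT1, typically made by cells around the vessel, activates TEK on endothelium and steadies the vessel wall, whereas ANGPT2 acts on the same receptor as a partial agonist or antagonist according to context. In the fetal mouse testis, endothelial cells enter from the neighbouring mesonephros, build the coelomic vessel and take part in dividing the gonad into cords, and blocking VEGF signalling in cultured mouse gonads disturbs vessels and cords. Read counts per gene do not separate soluble from membrane FLT1 or the splice forms of Vegfa.

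Reads in genes numbered 33123254 to 39244060 per library. Levels are given as CPM, the count scaled to a library of 1000000 reads. A count of 0 allows up to 3 reads, or 0.0764 to 0.0906 CPM, for counting error alone. The labels were partly borne out by marker genes. Summed Sertoli markers were at 1330 to 1400 CPM in Leydig, 287 to 328 in Interstitial and 4040 to 4290 in Sertoli. Summed fetal Leydig markers were at 324 to 562 CPM in Leydig and 84.5 to 111 in Interstitial, but 382 to 427 in Sertoli, and of the 8 listed 1 was higher and 1 lower in Leydig than in Sertoli. The Leydig label is used below as the name of the sort. Interstitial progenitor markers, such as Tcf21 and Pdgfra, summed to 1690 to 1880 CPM in Leydig, 1540 to 1640 in Interstitial and 452 to 474 in Sertoli. Interstitial held most RNA of blood cells. Erythroid markers summed to 72.9 to 247 CPM in Leydig, 8530 to 9390 in Interstitial and 86 to 210 in Sertoli, and macrophage markers to 22.1 to 35.5, 58.8 to 91.5 and 8.42 to 9.35 CPM in the same order of populations.

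Endothelial RNA remained after the CD31 step. The 22 listed endothelial markers summed to 302, 323 and 295 CPM in replicates A, B and C of Leydig, to 313, 242 and 281 CPM in Interstitial and to 69.9, 63.8 and 66.4 CPM in Sertoli. The Sertoli libraries lay below all others, and Interstitial replicate B lay below its 2 companions. Pecam1 itself had 24.2, 35.9 and 24.3 CPM in Leydig, 68.2, 73 and 68.5 CPM in Interstitial and 12.9, 8.83 and 10.7 CPM in Sertoli. Markers of germ cells, which also carry CD31, summed to 54.7 to 228 CPM in Leydig, 825 to 944 in Interstitial and 61.9 to 95.5 in Sertoli. Of 7 tested germ cell markers, all 7 were higher in Interstitial than in Leydig and than in Sertoli. Among all genes, 23.2% were higher in Interstitial than in Leydig and 32.7% were higher in Interstitial than in Sertoli. The part of germ cells in the Pecam1 level was not tested. In these bulk samples a smaller number of cells of a type cannot be told apart from less RNA per cell.

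The receptor genes lie on 3 chromosomes of the GRCm38 assembly. Kdr (ENSMUSG00000062960) spans chr5:75932827-75978458 on the minus strand and Flt1 (ENSMUSG00000029648) spans chr5:147561604-147726011 on the minus strand. Flt4 (ENSMUSG00000020357) spans chr11:49609263-49652739 and Tek (ENSMUSG00000006386) chr4:94739289-94874976, both on the plus strand. The 250 bases before the RefSeq start sites of Kdr, Flt1 and Tek are shown because all 3 genes were higher in Leydig and in Interstitial than in Sertoli. Sequences are from RefSeq on GRCm38.p6, written 5′ to 3′ on the strand of the gene. Capitals mark CAGGAA or CCGGAA, called ETS cores here, and the GC box GGGCGG, each on either strand. CAGGAA and CCGGAA are forms of the site of ETS-family factors, which are active in endothelium. GGAA after other letters was not marked. A match on the other strand appears as the reverse complement. No marked match overlaps another. The windows are chr5:75978456-75978705 for Kdr, chr5:147726012-147726261 for Flt1 and chr4:94739039-94739288 for Tek.
Kdr: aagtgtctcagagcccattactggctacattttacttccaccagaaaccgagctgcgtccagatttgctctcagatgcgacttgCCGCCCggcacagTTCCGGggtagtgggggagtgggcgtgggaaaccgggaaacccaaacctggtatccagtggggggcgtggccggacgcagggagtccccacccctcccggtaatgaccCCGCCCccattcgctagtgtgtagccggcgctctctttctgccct
Flt1: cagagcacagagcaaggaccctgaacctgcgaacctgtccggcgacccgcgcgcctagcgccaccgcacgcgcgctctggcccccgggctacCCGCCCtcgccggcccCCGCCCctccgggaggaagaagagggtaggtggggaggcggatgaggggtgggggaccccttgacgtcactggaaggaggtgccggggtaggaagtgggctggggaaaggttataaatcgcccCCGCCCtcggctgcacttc
Tek: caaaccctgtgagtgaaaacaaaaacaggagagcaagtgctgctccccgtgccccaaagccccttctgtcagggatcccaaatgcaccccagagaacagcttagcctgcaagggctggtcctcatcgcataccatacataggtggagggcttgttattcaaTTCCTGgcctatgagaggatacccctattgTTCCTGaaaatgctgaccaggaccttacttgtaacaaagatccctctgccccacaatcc

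The Kdr window held 1 ETS core, starting 153 bases before the start site, and 2 GC boxes, at a GC content of 61.6%. The Flt1 window held neither CAGGAA nor CCGGAA and 3 GC boxes, at 70.4% GC. GGAA after other letters, which was not searched, occurs in the Kdr and Flt1 windows. The Tek window held 2 ETS cores, starting 89 and 59 bases before the start site, and no GC box, at 51.2% GC. An ETS core is present in 35.1% of the 32851 mouse promoters of this length and a GC box in 32.7%, so both are common. The 3 windows differ in base composition and in these letters, and the absence of a match says only that the letters are not in the window. The RefSeq start of Flt4 lies inside the longer gene model used here, so its window is not shown.

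All 4 receptors were far higher in Leydig and in Interstitial than in Sertoli, by 3.31-fold to 7.29-fold. Kdr had 81.3, 92.8 and 85.1 CPM in replicates A, B and C of Leydig, 103, 98.4 and 104 CPM in Interstitial and 13.5, 13 and 13.1 CPM in Sertoli. Every Leydig and Interstitial library was above every Sertoli library, and the 3 Interstitial libraries were above the 3 Leydig libraries by a small margin. Kdr was 6.38-fold higher in Leydig than in Sertoli (log2 fold change 2.67 ± 0.09 SE, adjusted p 1.21e-06, edgeR's quasi-likelihood test with Benjamini-Hochberg adjustment over 18048 genes, as for every adjusted p below unless another tool is named). In Interstitial it was 7.29-fold higher than in Sertoli (2.87 ± 0.09, adjusted p 3.07e-08). Leydig against Interstitial did not pass the test (-0.19 ± 0.08, adjusted p 0.0694), although it did in 6 of 17 alternative settings, among them without Leydig replicate B (-0.30, adjusted p 0.0166). A fit that leaves out 1 library has 1 library in that population and assumes that it varies as the other populations do, here and below.

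Flt1, the receptor of VEGF-A and VEGF-B, had 13.5, 15.7 and 14.1 CPM in Leydig, 13.5, 9.98 and 12.1 CPM in Interstitial and 2.24, 2.64 and 2.48 CPM in Sertoli. The Leydig and Interstitial libraries overlapped, and both lay above Sertoli. It was 5.79-fold higher in Leydig than in Sertoli (2.53 ± 0.19, adjusted p 1.56e-05) and 4.63-fold higher in Interstitial than in Sertoli (2.21 ± 0.19, adjusted p 1.45e-05). Leydig against Interstitial gave 0.32 ± 0.16 with an adjusted p of 0.137, and 0.55 with an adjusted p of 0.048 without Interstitial replicate A.

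Flt4, known for its role in lymphatic endothelium, was at 14.8, 18.3 and 15.8 CPM in Leydig, 12.2, 9.31 and 11.8 CPM in Interstitial and 3.2, 3.05 and 2.8 CPM in Sertoli. The 3 populations did not overlap. It rose 5.15-fold in Leydig against Sertoli (2.36 ± 0.18, adjusted p 1.62e-05), 3.31-fold in Interstitial against Sertoli (1.73 ± 0.18, adjusted p 4.58e-05) and 1.55-fold in Leydig against Interstitial (0.64 ± 0.16, adjusted p 0.0106). The last call was lost without Leydig replicate B (0.46, adjusted p 0.0524) and without Interstitial replicate B (0.44, adjusted p 0.092).

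Markers of lymphatic endothelium went in different directions. Of 5 tested, 1 rose and 1 fell in Leydig against Sertoli, and 2 rose and 2 fell in each of the other comparisons. Among all genes, 37.5% were called in Leydig against Sertoli, 61.8% in Interstitial against Sertoli and 45.1% in Leydig against Interstitial. The count in Leydig against Sertoli is near that share and is no result about these markers. Their sum was 58 to 60.9 CPM in Leydig, 56.4 to 59.2 in Interstitial and 59.5 to 61.5 in Sertoli, most of it Pdpn, a mucin-like protein that other cells also make, at 34.7 to 46 CPM. Mmrn1, an extracellular protein of lymphatic and platelet biology, had 6.71, 6.98 and 5.28 CPM in Leydig, 8.42, 5.91 and 8.02 CPM in Interstitial and 0.673, 0.704 and 0.836 CPM in Sertoli. Like Flt4 it rose against Sertoli in Leydig (3.26 ± 0.24, adjusted p 1.51e-05) and in Interstitial (3.32 ± 0.24, adjusted p 5.23e-06), and these marker genes were chosen for naming after their values were seen. Lyve1, a hyaluronan receptor of lymphatic vessels and of some macrophages, was between 0.135 and 0.375 CPM in Leydig, 0.844 and 1.02 in Interstitial and 0.027 and 0.14 in Sertoli, and rose in Interstitial against Sertoli (2.87 ± 0.47, adjusted p 0.000734). Prox1, the transcription factor that specifies lymphatic endothelium, was at 4.57 to 4.73 CPM in Leydig and 1.88 to 2.18 in Interstitial, below the 7.17 to 8.65 CPM of Sertoli. The part of lymphatic cells in the Flt4 difference was not tested.

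Tek had 15.9, 17 and 15.4 CPM in Leydig, 11.7, 10.7 and 9.87 CPM in Interstitial and 2.33, 2.67 and 2.29 CPM in Sertoli. Leydig was highest, Interstitial came next and Sertoli was lowest, without overlap. Its differences were 6.41-fold in Leydig against Sertoli (2.68 ± 0.13, adjusted p 2.36e-06), 4.32-fold in Interstitial against Sertoli (2.11 ± 0.13, adjusted p 2.26e-06) and 1.48-fold in Leydig against Interstitial (0.57 ± 0.11, adjusted p 0.00406). All 3 calls held in each of the 17 settings, where Leydig against Interstitial ranged between 0.49 and 0.62.

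**Figure D1:**
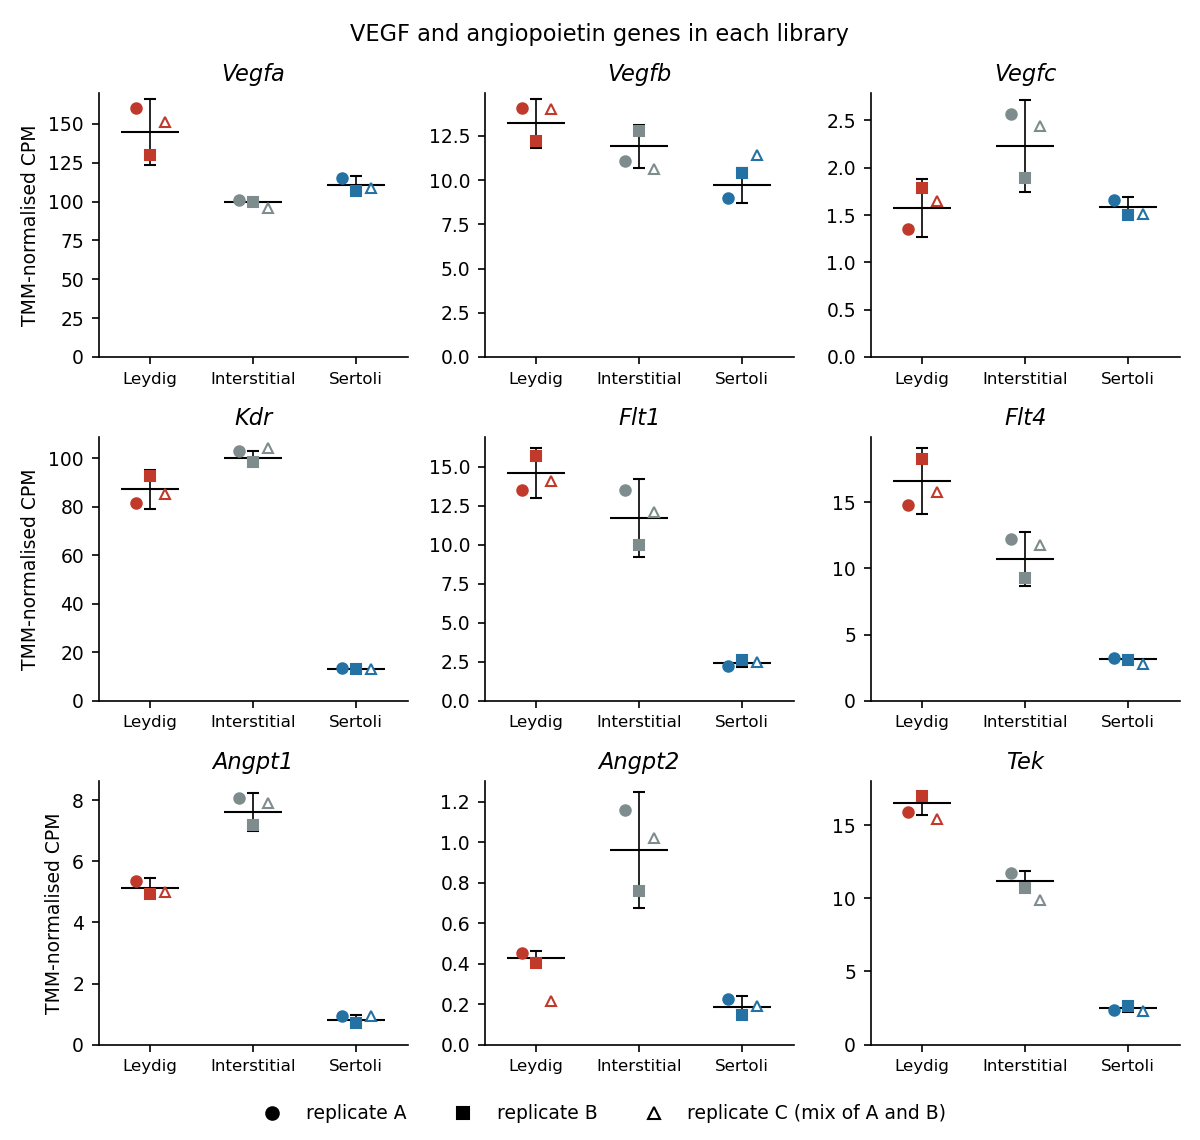
Expression of the 9 genes in each library, as TMM-normalised CPM on axes that start at 0. Circles are replicate A, squares replicate B and open triangles the mixed replicate C, and the line with its bar is the mean and SD of A and B. Kdr, Flt1, Flt4, Angpt1 and Tek are low in every Sertoli library, while Vegfa, Vegfb and Vegfc vary little between populations.

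Set beside the endothelial markers, the receptors moved by similar amounts against Sertoli. In Leydig against Sertoli, 21 of 22 endothelial markers rose, none fell, and the median log2 fold change was 2.62, where the receptors gave 2.36 to 2.68 and the median over all genes tested was -0.005. In Interstitial against Sertoli, 21 of 22 rose and none fell, with a median of 2.23 beside receptor values of 1.73 to 2.87. Among all genes, 37.5% were called in Leydig against Sertoli, 61.8% in Interstitial against Sertoli and 45.1% in Leydig against Interstitial. In Leydig against Interstitial the receptors gave -0.19 for Kdr, 0.32 for Flt1, 0.64 for Flt4 and 0.57 for Tek. Of the 22 markers, 12 rose and 2 fell there, with a median of 0.53. The 2 exceptions were Pecam1 (-1.22 ± 0.19, adjusted p 0.00127) and Plvap, a protein of fenestrated endothelium (-1.66 ± 0.31, adjusted p 0.00282). Pecam1 encodes the target of the depleting antibody, a protein also present on germ cells. Cdh5, the cadherin of endothelial junctions (0.54 ± 0.15, adjusted p 0.0196), and Cldn5, a tight junction claudin (0.57 ± 0.15, adjusted p 0.014), were higher in Leydig. That median was 0.88 without Interstitial replicate A and 0.25 without Interstitial replicate B, and 9 of the 22 were called without Interstitial replicate B. The part of endothelial cell content in the receptor differences was not tested.

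**Figure D2:**
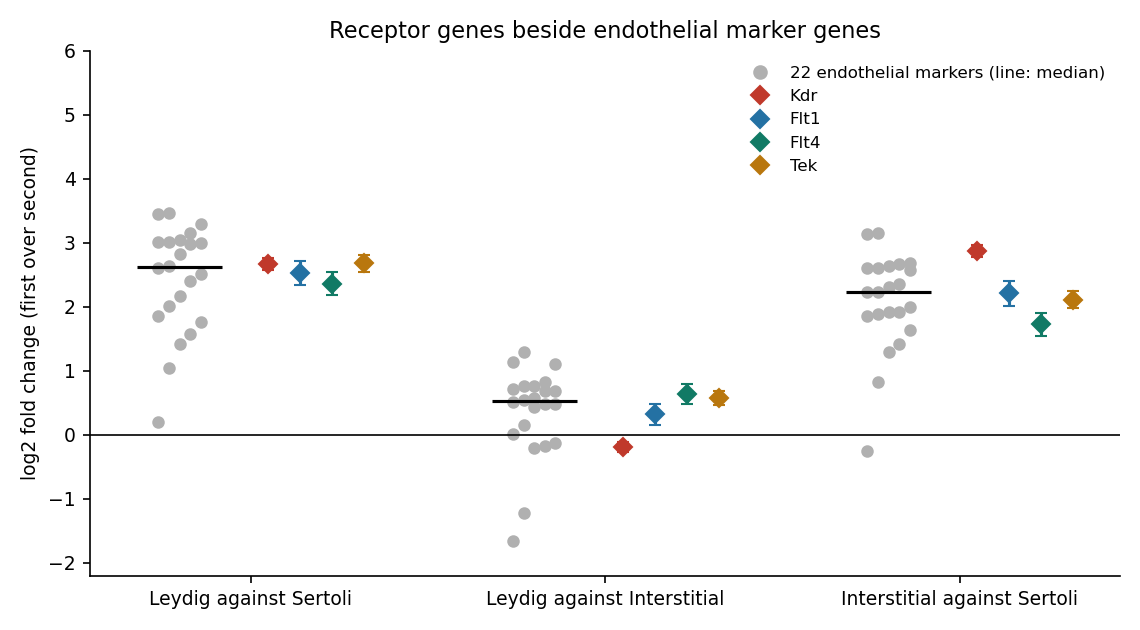
Log2 fold changes of Kdr, Flt1, Flt4 and Tek (diamonds with SE bars) beside those of the 22 endothelial markers (grey points, with their median as a line) in the 3 comparisons. The receptors sit within the spread of the markers in each comparison, and Kdr is the 1 receptor below 0 in Leydig against Interstitial.

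Relative to the summed endothelial markers, Kdr followed another order than Tek. It equalled 26.9, 28.7 and 28.8% of that sum in Leydig, 32.8, 40.6 and 36.9% in Interstitial and 19.3, 20.4 and 19.8% in Sertoli. The 3 populations did not overlap, and Interstitial was highest. Tek equalled 5.28, 5.27 and 5.22% of the sum in Leydig, 3.75, 4.43 and 3.51% in Interstitial and 3.33, 4.18 and 3.45% in Sertoli. With Pecam1 in the sum, Leydig was highest here and the other populations overlapped. Flt1 equalled 4.45, 4.85 and 4.77% in Leydig, 4.31, 4.12 and 4.32% in Interstitial and 3.21, 4.14 and 3.73% in Sertoli. Flt4 equalled 4.9, 5.67 and 5.35% in Leydig, 3.89, 3.84 and 4.19% in Interstitial and 4.57, 4.78 and 4.22% in Sertoli. These shares are descriptions with no test, and they share their denominator. That sum includes Pecam1, which germ cells also carry. Pecam1 was at 24.2, 35.9 and 24.3 CPM in Leydig, 68.2, 73 and 68.5 CPM in Interstitial and 12.9, 8.83 and 10.7 CPM in Sertoli. Pecam1 made up more of the Interstitial sum than of the Leydig sum. The shares were not taken without Pecam1, so the order of Leydig and Interstitial for Tek, Flt1 and Flt4 holds for this sum alone.

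**Figure D3:**
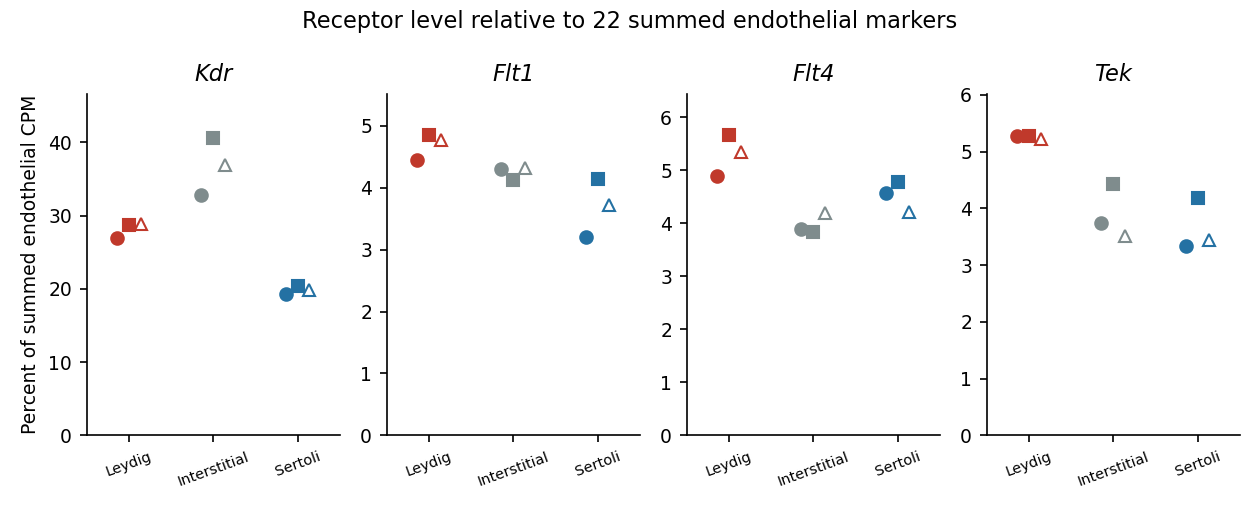
Kdr, Flt1, Flt4 and Tek in each library as a percentage of the summed CPM of the 22 endothelial markers, on axes that start at 0. Circles are replicate A, squares replicate B and open triangles the mixed replicate C. Kdr reaches 40.6% in Interstitial and stays at or under 20.4% in Sertoli, while Tek is highest in Leydig. The sum includes Pecam1, and the place of Tek was not examined without it.

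The angiopoietins were both higher in Interstitial than in Leydig and in Sertoli. Angpt1 (ENSMUSG00000022309, chr15:42424723-42676977, minus strand) had 5.36, 4.93 and 5.01 CPM in Leydig, 8.07, 7.19 and 7.9 CPM in Interstitial and 0.926, 0.704 and 0.943 CPM in Sertoli. The populations did not overlap, and the Sertoli values rest on 33, 24 and 35 reads. Angpt1 was 8.95-fold higher in Interstitial than in Sertoli (3.16 ± 0.20, adjusted p 2.37e-06) and 6.09-fold higher in Leydig than in Sertoli (2.61 ± 0.20, adjusted p 2.09e-05). In Leydig it was 1.47-fold lower than in Interstitial (-0.56 ± 0.16, adjusted p 0.0226). That call did not hold without Leydig replicate B (-0.51, adjusted p 0.0745), without Interstitial replicate A (-0.48, adjusted p 0.118) or in DESeq2 (-0.54, adjusted p 0.057). An annotated antisense gene, Gm17473, shares 737 exonic bases with Angpt1 and had at most 1 read in a library.

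Angpt2 (ENSMUSG00000031465, chr8:18690263-18741562, minus strand) was the least abundant member. It had 15, 14 and 8 reads in Leydig (0.451, 0.404 and 0.217 CPM), 47, 26 and 41 reads in Interstitial (1.16, 0.757 and 1.02 CPM) and 8, 5 and 7 reads in Sertoli (0.224, 0.147 and 0.189 CPM). Interstitial lay above the other populations, and the Leydig and Sertoli libraries overlapped. The gene was 4.92-fold higher in Interstitial than in Sertoli (2.30 ± 0.41, adjusted p 0.00124) and 2.23-fold lower in Leydig than in Interstitial (-1.16 ± 0.36, adjusted p 0.0278). Leydig against Sertoli did not pass (1.14 ± 0.47, adjusted p 0.0915). The call between Leydig and Interstitial did not hold without Leydig replicate A (-1.24, adjusted p 0.0868), without Leydig replicate B (-1.09, adjusted p 0.109), without Interstitial replicate A (-0.82, adjusted p 0.194), in the first 2 lanes (-1.02, adjusted p 0.124) or in DESeq2 (-1.14, adjusted p 0.182).

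Angpt2 lies on the opposite strand within Mcph1, a gene of chromosome condensation, without shared exons. Whether the counting used strand is not stated in the sources used here. Mcph1 was at 35.8, 39 and 36.4 CPM in Leydig, 46.6, 48.5 and 47.9 CPM in Interstitial and 31.7, 33.6 and 32.4 CPM in Sertoli. It was likewise higher in Interstitial than in Sertoli (0.49 ± 0.08, adjusted p 0.000614) and lower in Leydig than in Interstitial (-0.33 ± 0.08, adjusted p 0.00793), by smaller amounts than Angpt2. Its part in the Angpt2 counts was not tested.

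Per kilobase of exon, Angpt2 was at 0.119, 0.115 and 0.061 of the Angpt1 level in Leydig, 0.203, 0.148 and 0.182 in Interstitial and 0.342, 0.294 and 0.282 in Sertoli. Angpt1 thus exceeded Angpt2 in every library. The ratio of Angpt1 to Tek, ligand to receptor on the same per-kilobase scale, was 0.304, 0.262 and 0.294 in Leydig, 0.623, 0.606 and 0.725 in Interstitial and 0.36, 0.239 and 0.373 in Sertoli. Interstitial was highest, and Leydig and Sertoli overlapped.

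Markers of the cells that surround vessels, a usual source of ANGPT1, were counted as well. Among all genes, 37.5% were called in Leydig against Sertoli, 61.8% in Interstitial against Sertoli and 45.1% in Leydig against Interstitial. Of 11 tested smooth muscle and pericyte markers, 9 were higher and 1 lower in Leydig than in Sertoli (median 1.45), 8 were higher and 3 lower in Interstitial than in Sertoli (median 1.06), and 4 were higher and 2 lower in Leydig than in Interstitial (median 0.26). The last count is near the share among all genes and is no result about these cells. The sum of the markers was 463 to 529 CPM in Leydig, 401 to 443 in Interstitial and 296 to 329 in Sertoli. The markers named here were picked after their values were seen. Lower in Leydig than in Interstitial, as Angpt1 was, were Rgs5, a regulator of G protein signalling (-1.41 ± 0.16, adjusted p 0.000207), and Kcnj8, a potassium channel subunit (-1.74 ± 0.27, adjusted p 0.00112). The 4 that went the other way were Cspg4 (0.76 ± 0.09, adjusted p 0.000235), Acta2 (0.57 ± 0.14, adjusted p 0.0118), Myh11 (1.1 ± 0.11, adjusted p 0.000139) and Mcam (0.27 ± 0.09, adjusted p 0.0297). Pdgfrb, Notch3 and Abcc9 were among those not called. Most markers of mesothelium and surface epithelium moved with Angpt1. Of these 6, 4 were higher and 1 lower in Leydig than in Sertoli (median 3.23), 5 were higher and 1 lower in Interstitial than in Sertoli (median 4.26), and 1 was higher and 5 lower in Leydig than in Interstitial (median -0.77). Their sum, at 343 to 359 CPM in Leydig, 332 to 368 in Interstitial and 361 to 384 in Sertoli, did not follow these counts. A large part of it was Wt1, at 240 to 254 CPM in Leydig, 183 to 184 in Interstitial and 353 to 377 in Sertoli. Wt1 was the 1 gene called in the other direction in each comparison. The part of pericytes, smooth muscle or mesothelium in the Angpt1 difference was not tested.

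The VEGF ligands varied far less than the receptors. Vegfa (ENSMUSG00000023951, chr17:46016993-46032369, minus strand) was the member with the most reads in Leydig and Sertoli, close to Kdr in Interstitial, and averaged 145 ± 21.1 CPM in Leydig, 100 ± 0.653 in Interstitial and 111 ± 5.72 in Sertoli (SD, n = 2 each). Its libraries read 160, 130 and 151 CPM in Leydig, 101, 99.6 and 95.7 CPM in Interstitial and 115, 107 and 109 CPM in Sertoli. Every Leydig library was above every other, and Interstitial lay slightly below Sertoli. Vegfa was 1.46-fold higher in Leydig than in Interstitial (0.55 ± 0.09, adjusted p 0.00184), a call that held in all 17 settings at 0.40 to 0.68.

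Against Sertoli, Vegfa was 1.26-fold higher in Leydig (0.34 ± 0.09, adjusted p 0.0212). The call was lost without Leydig replicate A (0.18, adjusted p 0.117), without Sertoli replicate A (0.39, adjusted p 0.0599) and without Sertoli replicate B (0.28, adjusted p 0.141), while the size of the change fell by over 1.5 times in the first of these alone. Interstitial against Sertoli did not pass (-0.21 ± 0.09, adjusted p 0.0805), but did so without Leydig replicate A, whose spread enters the common fit (-0.22, adjusted p 0.0164). The Leydig replicate with more Vegfa also had more fetal Leydig marker RNA, which summed to 562, 324 and 491 CPM in the 3 Leydig libraries. Summed fetal Leydig markers in Sertoli, where Vegfa was lower, were at 427, 382 and 398 CPM. The part of these cells in the Vegfa difference was not tested.

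Vegfb (ENSMUSG00000024962, chr19:6982473-6987651, minus strand) had 14.1, 12.2 and 14 CPM in Leydig, 11.1, 12.8 and 10.6 CPM in Interstitial and 9.01, 10.4 and 11.4 CPM in Sertoli. Leydig was above Sertoli without overlap, and Interstitial overlapped both. Leydig against Sertoli passed narrowly at 1.32-fold (0.40 ± 0.13, adjusted p 0.0439). It no longer passed without Leydig replicate A (0.29, adjusted p 0.183), without Sertoli replicate A (0.30, adjusted p 0.235), without Sertoli replicate B (0.50, adjusted p 0.0676), in the last 2 lanes (0.39, adjusted p 0.17) or in DESeq2 (0.39, adjusted p 0.0689). Leydig against Interstitial gave 0.16 ± 0.13 (adjusted p 0.36) and Interstitial against Sertoli 0.24 ± 0.13 (adjusted p 0.147).

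Vegfc (ENSMUSG00000031520, chr8:54077606-54187096, plus strand) was low, with 45, 62 and 61 reads in Leydig (1.35, 1.79 and 1.65 CPM), 104, 65 and 98 in Interstitial (2.57, 1.89 and 2.44 CPM) and 59, 51 and 56 in Sertoli (1.66, 1.5 and 1.51 CPM). The Interstitial libraries were the highest, and Leydig overlapped Sertoli. None of its comparisons passed the test. Leydig against Sertoli gave -0.05 ± 0.26 (adjusted p 0.911), Leydig against Interstitial -0.50 ± 0.25 (adjusted p 0.143) and Interstitial against Sertoli 0.45 ± 0.25 (adjusted p 0.151).

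Counted by comparison, 7 of the 9 genes were called in Leydig against Sertoli, all 7 higher in Leydig, beside 37.5% of all genes tested (16.9% higher in Leydig and 20.6% higher in Sertoli). The 2 not called were Vegfc and Angpt2, the genes with the fewest reads in Leydig. In Interstitial against Sertoli 6 were called, all higher in Interstitial, beside 61.8% of all genes (32.7% higher in Interstitial and 29.1% higher in Sertoli). The 3 VEGF ligands were the ones not called. Leydig against Interstitial called 5, of which Vegfa, Flt4 and Tek were higher in Leydig and Angpt1 and Angpt2 higher in Interstitial, beside 45.1% of all genes (22% higher in Leydig and 23.2% higher in Interstitial). Taken in both directions together, the last 2 counts are near the share among all genes and are no result about the members. The comparisons share libraries and are not independent of one another.

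**Figure D4:**
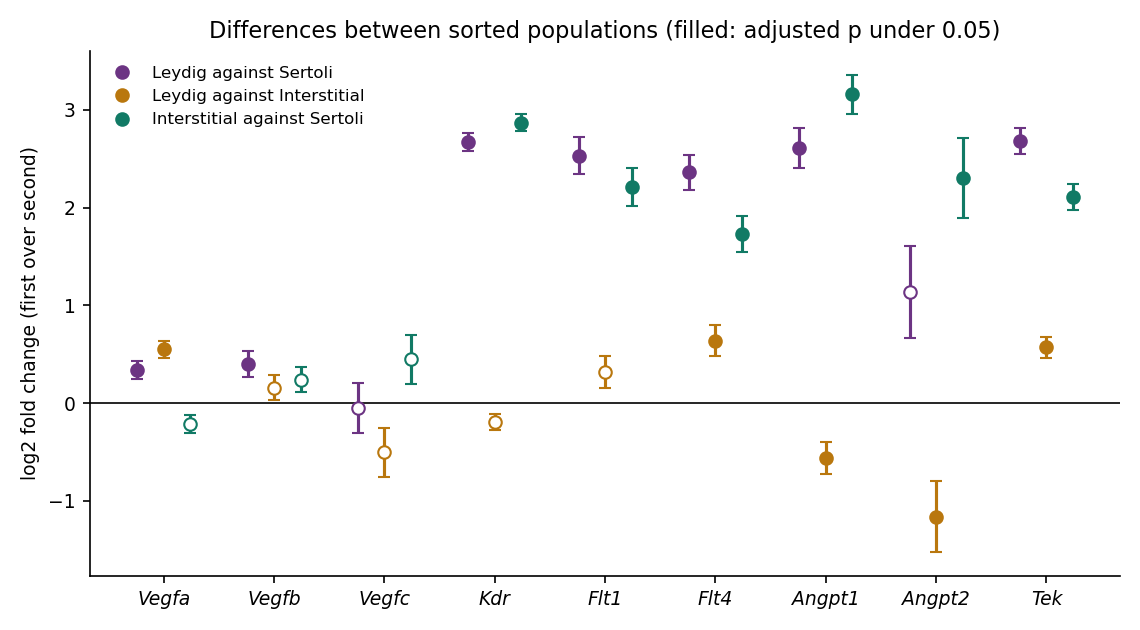
Log2 fold changes of the 9 genes with SE bars in Leydig against Sertoli, Leydig against Interstitial and Interstitial against Sertoli. Filled points have an adjusted p under 0.05. Receptors and Angpt1 lie between 1.73 and 3.16 against Sertoli, the VEGF ligands stay within 0.55 of 0, and both angiopoietins are below 0 in Leydig against Interstitial.

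Scaled per kilobase of exon, the ligand Vegfa was above its receptors in every population, by the smallest margin over Kdr in Interstitial. In Leydig the order was Vegfa at 33.9 ± 4.94 CPM per kilobase, Kdr at 9.64 ± 0.901, Vegfb at 8.19 ± 0.872, Tek at 3.5 ± 0.163, Flt4 at 2.01 ± 0.303, Flt1 at 1.08 ± 0.117, Angpt1 at 0.988 ± 0.058, Vegfc at 0.641 ± 0.125 and Angpt2 at 0.116 ± 0.00916 (SD, n = 2, as for the next orders). Only Flt1 and Angpt1 overlapped among neighbours. In Interstitial, Vegfa (23.4 ± 0.152), Kdr (11.1 ± 0.321), Vegfb (7.43 ± 0.756) and Tek (2.38 ± 0.149) kept these first places, followed by Angpt1 (1.47 ± 0.119), Flt4 (1.31 ± 0.246), Vegfc (0.912 ± 0.197), Flt1 (0.869 ± 0.183) and Angpt2 (0.26 ± 0.0779). Angpt1 overlapped Flt4 there, and Vegfc overlapped Flt1.

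In Sertoli Vegfa and Vegfb preceded Kdr, and Vegfc followed it. Vegfa was at 26 ± 1.34 CPM per kilobase, Vegfb at 6.04 ± 0.608, Kdr at 1.47 ± 0.0389, Vegfc at 0.643 ± 0.0459, Tek at 0.53 ± 0.0512, Flt4 at 0.38 ± 0.0126, Flt1 at 0.181 ± 0.0207, Angpt1 at 0.157 ± 0.0301 and Angpt2 at 0.0503 ± 0.0149. Flt1 and Angpt1 were the 1 pair of neighbours that overlapped. With the length of the longest transcript in place of all exons, Flt1 was at 2.11 in Leydig, 1.7 in Interstitial and 0.354 in Sertoli, and passed Vegfc in Interstitial, where its annotated exons cover 13504 bases and its longest transcript 6895.

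**Figure D5:**
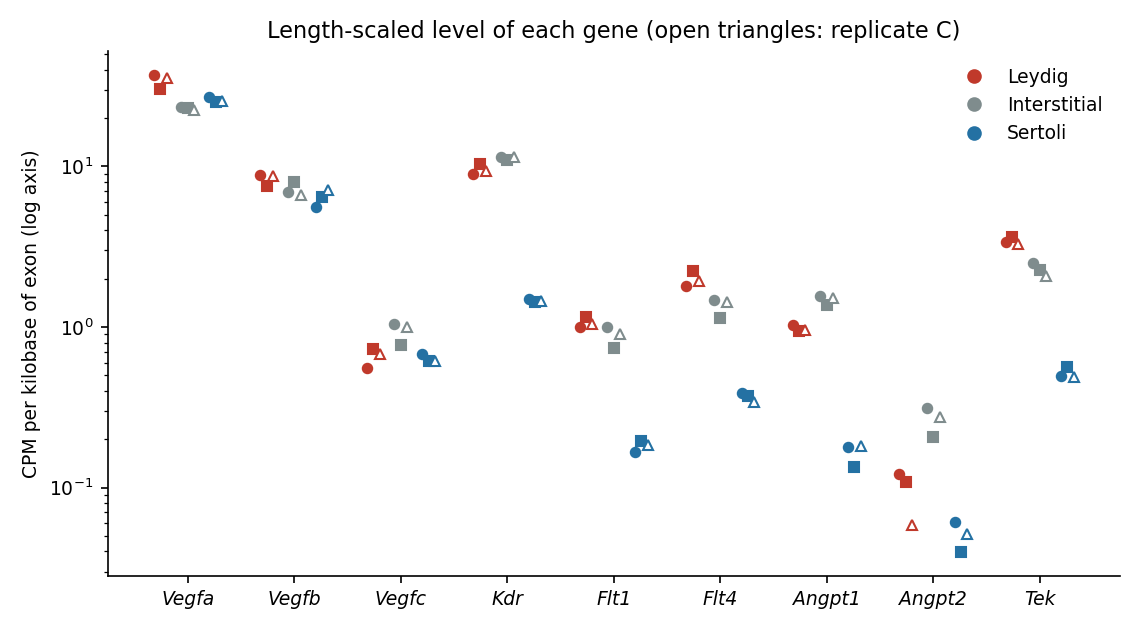
Level of each gene per kilobase of exon in each library, on a log axis. Circles are replicate A, squares replicate B and open triangles the mixed replicate C. Vegfa lies above all other genes in each population, and the Sertoli points of Kdr, Flt1, Flt4, Angpt1 and Tek fall well below those of Leydig and Interstitial.

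On the same scale Vegfa was 4.15, 2.95 and 3.74 times Kdr in Leydig, 2.07, 2.13 and 1.94 times in Interstitial and 18, 17.4 and 17.5 times in Sertoli. The ligand to receptor ratio was thus highest in Sertoli and lowest in Interstitial, without overlap. Flt1 was at 0.111, 0.113 and 0.111 of Kdr in Leydig, 0.088, 0.0678 and 0.0782 in Interstitial and 0.111, 0.136 and 0.126 in Sertoli. Flt4 was at 0.2, 0.217 and 0.204 of Kdr in Leydig, 0.13, 0.104 and 0.125 in Interstitial and 0.26, 0.258 and 0.234 in Sertoli. Both ratios were lowest in Interstitial, where Kdr was highest. These ratios were not tested.

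Among 47 other genes of the pathway, 46 were tested. In Leydig against Sertoli 18 rose and 9 fell (median 0.34), in Interstitial against Sertoli 19 rose and 10 fell (median 0.24, and 0.043 over all genes), and in Leydig against Interstitial 15 were higher in Leydig and 5 in Interstitial (median 0.18, and 0.01 over all genes). Calls in either direction made up 37.5%, 61.8% and 45.1% of all genes in these comparisons, and the pathway totals of Interstitial against Sertoli and Leydig against Interstitial are near those shares, so they are no result about the pathway. The counts for its groups below are descriptions against the same shares. Pgf and Vegfd, further ligands of this family, and Angpt4, another angiopoietin, were low. Vegfd had 8.82, 6.31 and 7.93 CPM in Leydig, 7.5, 4.51 and 6.73 CPM in Interstitial and 4.1, 3.52 and 3.42 CPM in Sertoli, and rose in Leydig against Sertoli (0.95 ± 0.26, adjusted p 0.0208). Its other comparisons did not pass, at 0.34 ± 0.25 in Leydig against Interstitial (adjusted p 0.305) and 0.61 ± 0.26 in Interstitial against Sertoli (adjusted p 0.0743). Angpt4, with 10 to 44 reads per library, rose in Interstitial against Sertoli (1.26 ± 0.38, adjusted p 0.0174). Pgf, at 2.56 to 5.15 CPM, passed in no comparison (adjusted p 0.109, 0.899 and 0.0564 in Leydig against Sertoli, Leydig against Interstitial and Interstitial against Sertoli).

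Of 5 co-receptors and receptor partners, 4 rose and 1 fell in Leydig against Sertoli, 3 rose and 1 fell in Interstitial against Sertoli, and 3 were higher in Leydig than in Interstitial. Nrp1, a co-receptor that strengthens binding of VEGF-A to KDR, had 61.9, 58.1 and 59.3 CPM in Leydig, 61.7, 57.7 and 58.2 CPM in Interstitial and 30.2, 26.8 and 29.3 CPM in Sertoli. It rose against Sertoli in Leydig (1.03 ± 0.08, adjusted p 2.35e-05) and in Interstitial (1.01 ± 0.08, adjusted p 1.12e-05), and Leydig and Interstitial overlapped (0.02 ± 0.08, adjusted p 0.849). Nrp2, a co-receptor of FLT4, had 58, 55.5 and 59.6 CPM in Leydig, 30.5, 30.6 and 27.5 CPM in Interstitial and 29.1, 34.8 and 29.9 CPM in Sertoli. Leydig stood above both others (0.91 ± 0.09 against Interstitial, adjusted p 0.000125, and 0.79 ± 0.09 against Sertoli, adjusted p 0.000193), and Interstitial against Sertoli did not pass (-0.12 ± 0.09, adjusted p 0.277).

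Tie1, an orphan receptor that pairs with TEK, had 26.2, 29.7 and 26.7 CPM in Leydig, 23.4, 16.2 and 19.7 CPM in Interstitial and 3.34, 3.2 and 3.05 CPM in Sertoli. Its order was that of Tek (3.05 ± 0.19 in Leydig against Sertoli, adjusted p 6.18e-06, 2.54 ± 0.19 in Interstitial against Sertoli, adjusted p 6.07e-06, and 0.51 ± 0.16 in Leydig against Interstitial, adjusted p 0.0288). Gpc1, a heparan sulphate proteoglycan, was the co-receptor that fell against Sertoli, in Leydig (-0.69 ± 0.07, adjusted p 9.3e-05) and in Interstitial (-1.48 ± 0.07, adjusted p 4.81e-07). It was higher in Leydig than in Interstitial (0.79 ± 0.07, adjusted p 7.58e-05).

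Of 8 genes that VEGF is known to induce in endothelium, 6 rose and 1 fell in Leydig against Sertoli (median 1.67), and the same counts held in Interstitial against Sertoli (median 1.78). Dll4, a Notch ligand of tip cells, had 4.24, 6.34 and 4.9 CPM in Leydig, 3.64, 2.39 and 2.82 CPM in Interstitial and 0.701, 0.763 and 0.593 CPM in Sertoli. It rose in Leydig against Sertoli (2.81 ± 0.31, adjusted p 0.000147) and against Interstitial (0.82 ± 0.26, adjusted p 0.0309). Interstitial was also above Sertoli for Dll4 (1.99 ± 0.32, adjusted p 0.000659). Hlx, a homeobox factor, rose against Sertoli in Leydig (2.69 ± 0.34, adjusted p 0.00034) and in Interstitial (2.99 ± 0.33, adjusted p 7.68e-05). So did Kcne3, a potassium channel subunit with 3 to 25 reads per library, in Leydig (1.8 ± 0.49, adjusted p 0.0187) and in Interstitial (2.45 ± 0.44, adjusted p 0.00132). The gene that fell in both was Rcan1, a calcineurin regulator, named after its values were seen (-1.38 ± 0.09 in Leydig, adjusted p 1.01e-05, and -1.94 ± 0.10 in Interstitial, adjusted p 5.2e-07). In Leydig against Interstitial 3 of the 8 were higher in Leydig and none in Interstitial.

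Genes of other steps gave mixed counts. Of 6 tested adapters, 1 rose and 1 fell in Leydig against Sertoli, 2 rose and 2 fell in Interstitial against Sertoli, and 3 were higher and 1 lower in Leydig than in Interstitial. Nos3, the endothelial nitric oxide synthase, rose against Sertoli in Leydig (2.53 ± 0.17, adjusted p 8.36e-06) and in Interstitial (1.8 ± 0.17, adjusted p 2.66e-05). Shb, an adapter of KDR, was lower in Leydig than in Interstitial (-1.25 ± 0.18, adjusted p 0.000821) and rose in Interstitial against Sertoli (1.76 ± 0.19, adjusted p 5.71e-05). Both genes for processing of VEGF-C rose against Sertoli in Leydig and in Interstitial. Named after their values were seen, Ccbe1, a matrix cofactor, rose by 1.60 ± 0.09 in Leydig (adjusted p 4.92e-06) and 1.22 ± 0.09 in Interstitial (adjusted p 7.71e-06), and the protease gene Adamts3 by 0.73 ± 0.16 (adjusted p 0.00806) and 1.25 ± 0.16 (adjusted p 0.000176). Of 4 secreted inhibitors, 2 rose and none fell in each comparison against Sertoli, and 1 was higher in Leydig than in Interstitial.

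Oxygen sensing regulates Vegfa transcription in many tissues. Of 9 oxygen sensing genes, 2 rose and 3 fell in Leydig against Sertoli, 3 rose and 3 fell in Interstitial against Sertoli, and 2 were higher and 1 lower in Leydig than in Interstitial. Hif1a, the hypoxia-inducible subunit, named after its values were seen, had 323, 338 and 334 CPM in Leydig, 223, 246 and 248 CPM in Interstitial and 413, 428 and 434 CPM in Sertoli. Sertoli was highest for Hif1a. Other HIF subunits, also named after their values were seen, differed from it. Hif3a rose against Sertoli in Leydig (1.04 ± 0.11, adjusted p 0.000101) and in Interstitial (1.21 ± 0.11, adjusted p 1.9e-05). Epas1 rose in Interstitial against Sertoli (0.35 ± 0.1, adjusted p 0.0185) and was not called in Leydig against Sertoli (0.26 ± 0.11, adjusted p 0.0834). Egln3, a HIF prolyl hydroxylase, rose against Sertoli in Interstitial (2.20 ± 0.16, adjusted p 6.24e-06) and in Leydig (1.45 ± 0.17, adjusted p 0.000181). Of 9 hypoxia targets none rose and 3 fell in Leydig against Sertoli and in Interstitial against Sertoli, and 2 were higher and 2 lower in Leydig than in Interstitial. The part of oxygen sensing in the Vegfa difference was not tested.

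Across the 6 libraries A and B, the genes whose log2 CPM (pseudocount 0.5) correlated best with a member, among some 11471 genes averaging at least 5 CPM, were as follows. Kdr was closest to Itga8 (Pearson's r 0.9983) and Hdgfl3 (0.9982), Flt1 to Pcdh17 (0.9987) and Adgrf5 (0.9973), Flt4 to Thsd1 (0.9983) and the endothelial marker Erg (0.998), and Tek to Cpne8 (0.9997) and Sorcs3 (0.9982). Angpt1 was closest to Sv2a (0.9998) and Lrrn4 (0.9997), and Angpt2 to Wdr86 (0.9968) and Cmss1 (0.9949). Vegfa was closest to Slc39a13 (0.9901) and Ankrd46 (0.9898), Vegfb to E130317F20Rik (0.9936) and Gtf2ird1 (0.9921), and Vegfc to Psma6 (0.992) and Zkscan2 (0.9833). With 6 libraries in 3 populations such values are a description, since any gene with the same order of populations scores high.

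The authors' deposited table of Leydig against Sertoli lists Kdr (2.71), Tek (2.73), Angpt1 (2.56), Flt1 (2.55) and Flt4 (2.43), given as log2 fold changes with adjusted p of 2.95e-11 to 3.54e-08. Their deposited table of Interstitial against Sertoli lists the same 5 genes at 2.97, 2.17, 3.18, 2.29 and 1.9, in that order of genes. None of the 9 is in the authors' deposited table of Leydig against Interstitial. Those tables hold genes with at least a 2-fold change and an adjusted p under 0.05, and Angpt2, which passed here in Interstitial against Sertoli, is in none of them.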

How the data were processed

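The authors deposited raw counts of reads for each gene in each lane of a library. By the submitters' processing notes, reads were aligned with TopHat2 2.0.6 to mm10 and counted with HTSeq; the sources used here do not state the annotation release or strand setting. Per the labels' protocols, libraries were stranded, ribosome-depleted total RNA run on 4 lanes. The authors also deposited limma tables that give, per the file headers, log2 fold changes and p-values with adjusted p-values, and scores that were not used. Between 32.23 and 38.52% of reads fell outside annotated genes and 0.62 to 0.77% were ambiguous; the 5 summary lines stayed out of library sizes.

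Counts were summed over lanes. Replicates A and B of the 3 populations (6 libraries, 3 residual degrees of freedom) were fitted together with edgeR 4.0.16 in R 4.3.3 (glmQLFit, glmQLFTest, TMM, filterByExpr), tested first on simulated data. P-values were adjusted over 18048 genes by Benjamini-Hochberg, with calls at an adjusted p of 0.05. The common biological coefficient of variation was 0.0871. CPM are TMM-normalised over all 9 libraries, and SD are over A and B. Lengths and coordinates come from GENCODE M21 on GRCm38 (mm10), which named 36638 of the identifiers, while 34 more took their symbol from the tables of the authors. RefSeq promoters were present for 7 of the 9 genes.

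The members and gene lists were chosen with earlier results of these data known. Other pathway genes were named if called and among the 4 largest changes of a comparison, with Nrp1, Nrp2, Tie1, Pgf, Vegfd and Angpt4 always given, and the 2 most correlated genes were named for each member. Alternatives were RLE factors, library size alone, DESeq2 1.42.0, limma voom 3.58.1, 2 other filters, all 9 libraries, 2 populations alone, a replicate block, the first or last 2 lanes, longest transcripts and leaving out each library.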

Additional observations from a re-analysis of the deposited data

How the results depend on the processing

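The number of the 9 genes called in Leydig against Interstitial, 5 as reported, was 3 with DESeq2, 8 with all 9 libraries (which count the mix as independent) and between 3 and 5 with 1 library left out. Leaving out 1 library gave 5 to 7 in Leydig against Sertoli and 6 to 7 in Interstitial against Sertoli. In no setting did a called gene change direction. Kdr, Flt1, Flt4, Angpt1 and Tek kept their calls against Sertoli in all 17 settings. Library size alone moved the median of all genes to 0.211 in Interstitial against Sertoli, against 0.043 with TMM, and the share of calls higher in the first-named population to 58.8% against 45.1% in Leydig against Sertoli, 40.2% against 48.7% in Leydig against Interstitial and 65.2% against 52.9% in Interstitial against Sertoli. Calls gained in some settings were, in Leydig against Interstitial, Kdr in 6 settings, Flt1 in 2 and Vegfc in 1, and in Interstitial against Sertoli, Vegfa in 4 and Vegfb and Vegfc in 2 each. Angpt2 did not pass a filter of 1 CPM. With the replicate letter as a replicate block, 7, 6 and 7 members were called in Leydig against Sertoli, Leydig against Interstitial and Interstitial against Sertoli; the added calls were Kdr (-0.19, adjusted p 0.0412) and Vegfa (-0.21, adjusted p 0.0221). The labels do not say that letters pair samples, and differences between A and B correlated across genes at r = 0.42 for Leydig and Interstitial, 0.15 for Leydig and Sertoli and 0.31 for Interstitial and Sertoli. Replicate C lay between A and B in 17 of 27 values. The causes of these changes were not tested. Angpt2 and Vegfc had 5 to 104 reads per library, the fewest of the 9 genes in Leydig.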
